A study of Rattus norvegicus with 12 samples.

Results

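From a rat RNA-seq table of 25908 genes, 6 were followed here: Drd1, Drd2, Tac1, Pdyn, Penk and Th, the genes of dopamine signalling and of the neuropeptides made by the striatum. The 6 genes were taken by Ensembl identifier from a fixed list: ENSRNOG00000023688 (Drd1), ENSRNOG00000008428 (Drd2), ENSRNOG00000007374 (Tac1), ENSRNOG00000026036 (Pdyn), ENSRNOG00000008943 (Penk) and ENSRNOG00000020410 (Th). That list supplied the symbols, since the table holds identifiers only. The samples were adult male Sprague Dawley rats of 15 weeks, either wild-type or hDNMT3A, the label of rats that carry human-derived DNMT3A, a gene for a DNA methyltransferase. There were 4 groups of 3 libraries: wild-type brain, hDNMT3A brain, wild-type testis and hDNMT3A testis. The labels do not say which part of the brain was taken, which promoter drives the transgene, how many founder lines were used or whether each library of a group is another animal. The spread that p-values rest on is thus that between these libraries, and it may be technical.

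Dopamine neurons of the midbrain make tyrosine hydroxylase, the product of Th and the rate-limiting enzyme of dopamine synthesis, and send their axons to the striatum. The projection neurons of the striatum fall into 2 main kinds. Direct-pathway neurons carry the stimulatory dopamine receptor D1 (Drd1) and make substance P from the Tac1 precursor and dynorphin from the Pdyn precursor, while indirect-pathway neurons carry the inhibitory receptor D2 (Drd2) and make enkephalin from the Penk precursor. Tac1, Pdyn and Penk are also transcribed in neurons outside the striatum, and Penk is transcribed in spermatogenic cells.

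Levels were deposited as FPKM, fragments scaled to gene length and to the library total, and the reads behind each value were recovered from its steps. Each library held between 14004547 and 16112149 reads, and the groups overlapped in depth. One library stood apart in a way that could touch the results: in wild-type brain replicate 2, 203 transcripts restricted to testis stood at 1.59% of their testis level, against 0.0511% to 0.330% in the other brain libraries. At 1.59% of its testis mean, Penk would add 0.703 FPKM to that library. Markers of cell types and brain regions were not used here, because identifiers could not be paired with symbols beyond the 6 genes. The tissue labels were therefore checked on the 6 genes alone: Tac1 had reads in 6 of 6 brain libraries and in 0 of 6 testis libraries.

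DNMT3A places methyl groups on cytosines, mostly those followed by guanine (CpG). Methylation was not analysed here, and the promoters are shown to place these genes by the CpG content of the DNA before their start. RefSeq promoters (build GRCr8) matched 5 of the 6 genes, all except Penk. In the 250 bases before the start, Tac1 held 17 CpG, Drd2 14, Th 13, Pdyn 10 and Drd1 4, against a median of 5 over 33469 promoters, of which 20.1% had more than Tac1 and 55.3% more than Drd1. The windows of Drd1, Tac1 and Th lay partly or wholly inside the annotated gene, by 250, 239 and 58 bases. Bases outside the gene are printed 5′ to 3′ on the strand of the gene, with each CpG in capitals, for Pdyn, the most abundant of the 6 in brain, and for Drd2 and Th, the 2 least abundant. They lie at chr3:137366504-137366753 (minus strand), chr8:58605153-58605402 (plus strand) and chr1:207508277-207508468 (minus strand).
Pdyn: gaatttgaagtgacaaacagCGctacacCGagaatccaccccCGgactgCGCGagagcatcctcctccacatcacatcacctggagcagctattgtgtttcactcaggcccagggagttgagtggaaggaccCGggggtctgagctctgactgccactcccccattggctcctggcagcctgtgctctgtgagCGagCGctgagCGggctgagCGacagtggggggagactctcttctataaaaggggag
Drd2: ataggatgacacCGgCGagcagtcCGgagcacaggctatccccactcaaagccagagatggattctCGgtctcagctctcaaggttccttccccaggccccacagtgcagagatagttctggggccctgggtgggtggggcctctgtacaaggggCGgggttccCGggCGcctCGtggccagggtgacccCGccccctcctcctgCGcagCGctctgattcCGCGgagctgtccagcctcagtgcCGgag
Th: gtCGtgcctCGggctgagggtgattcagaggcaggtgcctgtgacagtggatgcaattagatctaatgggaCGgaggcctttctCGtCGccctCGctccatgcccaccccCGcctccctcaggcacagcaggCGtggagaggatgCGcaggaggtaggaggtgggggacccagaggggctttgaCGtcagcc
The cAMP response element TGACGTCA, which reads the same on both strands, was found in the 250-base window of Th, beginning 69 bases before the start, near the end of the printed sequence, and in 1.59% of all promoters. A related shorter sequence, TGCGTCA, searched on both strands and not contained in the longer one, was found in Tac1, beginning 208 bases before the start and inside the annotated gene, and in 1.66% of all promoters. A match of letters is a description and not a measured binding site.

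In brain the order of levels per length was Pdyn, Penk, Tac1, Drd1, Th and Drd2, with means of 43.9, 15.7, 4.72, 2.64, 0.678 and 0.625 FPKM over 6 libraries. Pdyn was above Penk, Penk above Tac1 and Drd1 above Th in 6 of 6 libraries, and the ranges of these pairs did not overlap. Tac1 exceeded Drd1 in 5 of 6 libraries with overlapping ranges, and Th exceeded Drd2 in 3 of 6, so these neighbours were not separated beyond their spread. Pdyn ranked between the 87.4th and 95.1st percentile of all genes of a brain library, and Penk between the 73.6th and the 83.9th. Drd2 ranked between the 39.6th and the 45.4th. In testis the order was Penk at 44.1, Pdyn at 2.40, Th at 0.202, Drd2 at 0.123 and Drd1 at 0.0196 FPKM, with Tac1 at 0. Penk was above Pdyn and Pdyn above Th in 6 of 6 testis libraries without overlap, while the order of Th and Drd2 turned in 3 of 6.

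**Figure D1:**
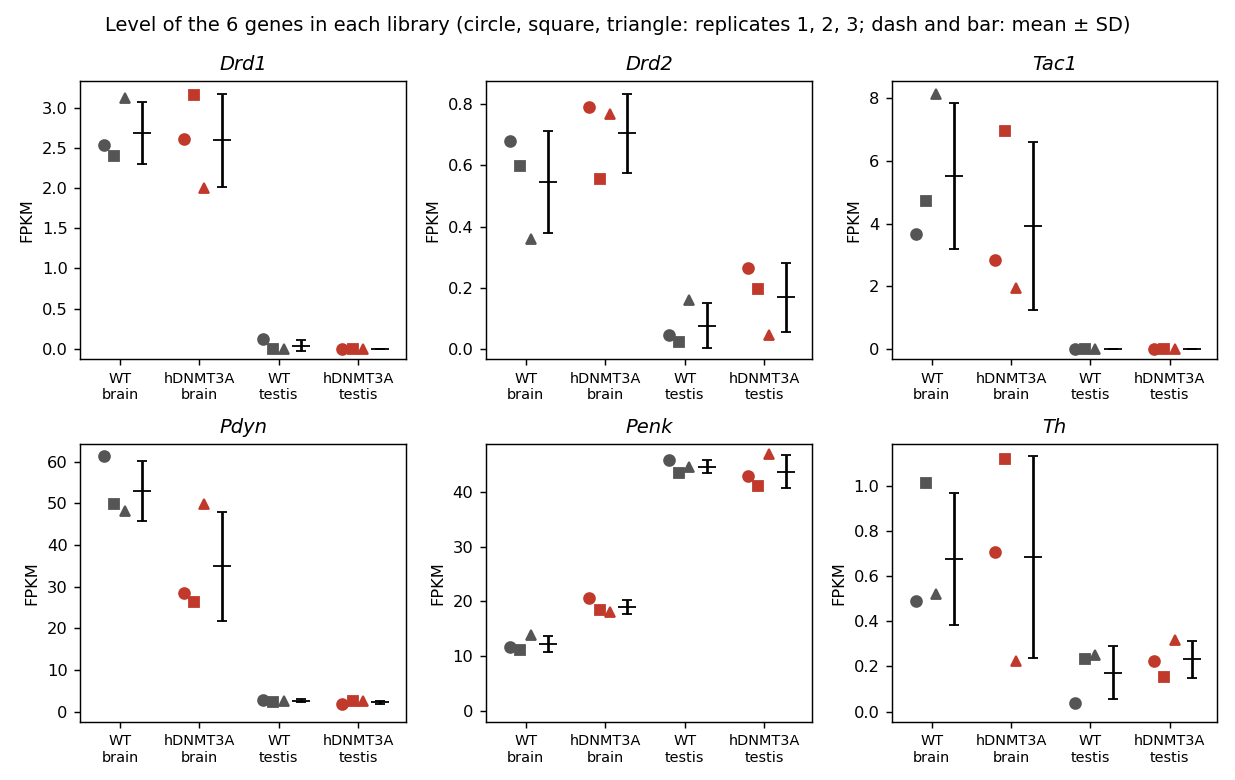
FPKM (vertical axes, linear) of each of the 6 genes in the 12 libraries by group, with 1 point for each library (wild type in grey, hDNMT3A in red) and the group mean with its SD (n = 3) drawn beside the points. Penk is the only one of the 6 with higher values in testis than in brain. In brain its hDNMT3A values (18.2 to 20.6) lie above its wild-type values (11.2 to 13.9), a pattern shown by 6.15% of all genes tested.

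Penk, the enkephalin precursor, was the only gene of the set whose brain levels did not overlap between the genotypes. Its level in wild-type brain was 11.8, 11.2 and 13.9 FPKM in replicates 1, 2 and 3. In hDNMT3A brain it was 20.6, 18.4 and 18.2 FPKM. Each transgenic library lay above each wild-type library, a pattern that 6.15% of all genes tested showed. The gap between the groups was wider than the range within either. The means were 12.3 ± 1.42 and 19.0 ± 1.31 FPKM (SD, n = 3), a ratio of 1.55, resting on 267 to 533 reads per library. On the scale of log2(FPKM + 0.5) the difference, hDNMT3A minus wild type, was 0.61 (SE 0.10, 95% interval 0.38 to 0.85), and the limma test across 13827 genes gave an unadjusted p of 0.000428 and an adjusted p of 0.16, which did not pass 0.05. Only 35 genes had a smaller p, and 4.24% of the genes tested had a difference at least as large in size. In bulk tissue a change in the number of cells that make a transcript and a change in the transcript per cell cannot be told apart.

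Testis transcripts were most abundant in wild-type brain replicate 2, which had the lowest Penk level of the 6 brain libraries. The difference was 0.55 (adjusted p = 0.31) without that library and 0.65 (adjusted p = 0.15) with a testis-like share taken from every brain library. Over 14 alternatives the Penk difference ran from 0.55 to 0.70, was positive in all 14, and had an adjusted p from 0.0142 to 0.56 by limma. It passed in 1 of them, the fit of all 12 libraries with a shared spread.

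In testis, Penk did not separate the genotypes. It stood at 45.8, 43.4 and 44.4 FPKM in wild-type replicates 1, 2 and 3. In hDNMT3A testis it stood at 42.9, 41.1 and 46.9 FPKM. These ranges overlapped, with means of 44.5 ± 1.23 and 43.6 ± 2.98 FPKM (SD, n = 3). The log2 difference was -0.03 (SE 0.07, 95% interval -0.19 to 0.12, limma adjusted p = 0.90), so a change of the size fitted in brain lay outside the interval. Whether the genotype difference itself differed between the tissues was asked by the interaction over 12 libraries: the Penk difference was 0.65 higher in brain (SE 0.12, 95% interval 0.37 to 0.92), with an unadjusted p of 0.000298 and an adjusted p of 0.064 over 10917 genes. That missed the threshold of 0.05. It passed in 2 of 19 alternatives, with limma's voom on the recovered reads (adjusted p = 0.042) and without wild-type brain replicate 3 (adjusted p = 0.032), and the adjusted p ran up to 0.19.

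Pdyn, the dynorphin precursor, had values opposite in direction to Penk in the brain. It stood at 61.3, 49.7 and 48.0 FPKM in wild-type replicates 1, 2 and 3. In hDNMT3A brain it stood at 28.4, 26.2 and 49.9 FPKM. Transgenic replicates 1 and 2 were well below the wild-type libraries, while transgenic replicate 3 lay within their range. The means were 53.0 ± 7.23 and 34.9 ± 13.1 FPKM (SD, n = 3), 1.52-fold higher in wild type. A log2 difference at least as large in size was found for 3.93% of the genes tested. The log2 difference was -0.65 (SE 0.23, 95% interval -1.20 to -0.10), with an unadjusted limma p of 0.026 and an adjusted p of 0.54. It was -0.94 (adjusted p = 0.19) without transgenic replicate 3 and -0.48 (adjusted p = 0.74) without transgenic replicate 2.

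In testis Pdyn was low. It read 2.88, 2.28 and 2.62 FPKM in the wild-type libraries. In the hDNMT3A libraries it read 1.74, 2.46 and 2.42 FPKM, from 64 to 95 reads. The groups overlapped, and the log2 difference was -0.20 (SE 0.17, 95% interval -0.59 to 0.19, limma adjusted p = 0.74). It was -0.07 (adjusted p = 0.89) without hDNMT3A testis replicate 1 and -0.13 (adjusted p = 0.93) without wild-type testis replicate 1. The limma interaction for Pdyn was -0.45 (SE 0.30, adjusted p = 0.79), and without single libraries it ran from -0.74 (without hDNMT3A brain replicate 3, adjusted p = 0.30) to -0.28 (without hDNMT3A brain replicate 2, adjusted p = 0.87).

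Tac1, the substance P precursor, was the most variable of the 4 genes tested in brain. It was at 3.68, 4.73 and 8.15 FPKM in wild-type replicates 1, 2 and 3. In hDNMT3A brain it was at 2.84, 6.97 and 1.96 FPKM. High and low libraries occurred in each genotype, and the ranges overlapped over most of their length. The SD of its log2 values around the group means was 0.698, against a median of 0.144 over 13827 genes, and 4.04% of genes varied more. For Penk that SD was 0.13, with 56.8% of genes more variable, and for Pdyn 0.377 and Drd1 0.228. The genotype difference of Tac1 was -0.54 (SE 0.43, 95% interval -1.55 to 0.47, limma adjusted p = 0.86), an interval that holds no change, a large fall and a smaller rise. Single libraries moved it: it was -1.001 (adjusted p = 0.58) without hDNMT3A replicate 2, -0.20 (adjusted p = 0.95) without hDNMT3A replicate 3 and -0.24 (adjusted p = 0.95) without wild-type replicate 3.

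Drd1, the D1 receptor, did not separate the genotypes in brain. Its values were 2.53, 2.40 and 3.12 FPKM in wild type and 2.61, 3.16 and 2.00 FPKM in hDNMT3A brain, from 68 to 111 reads per library. The log2 difference was -0.05 (SE 0.19, 95% interval -0.49 to 0.39, limma adjusted p = 0.98), and it turned positive without hDNMT3A brain replicate 3 (0.09) or wild-type brain replicate 3 (0.04). In testis Drd1 had 4 reads in wild-type replicate 1 and 0 reads in the other 5 libraries.

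Drd2, the D2 receptor, and Th, the dopamine synthesis enzyme, averaged under 1 FPKM in brain and were left out of the main test by its filter. Drd2 was at 0.679, 0.598 and 0.359 FPKM in wild-type brain and at 0.788, 0.556 and 0.768 FPKM in hDNMT3A brain, from 15 to 33 reads. The genotypes overlapped. Th was at 0.491, 1.01 and 0.521 FPKM in wild-type brain and at 0.706, 1.12 and 0.224 FPKM in hDNMT3A brain, from 6 to 31 reads, and also overlapped. With no filter, the limma differences were 0.21 (95% interval -0.26 to 0.68, adjusted p = 0.85) for Drd2 and -0.04 (95% interval -0.86 to 0.78, adjusted p = 0.99) for Th. In testis, where both had 1 to 11 reads per library, these values were 0.21 (95% interval -0.19 to 0.60, adjusted p = 0.77) and 0.13 (95% interval -0.28 to 0.54, adjusted p = 0.85). At these reads only a large difference could have been seen.

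Of the 4 genes tested in brain, limma called 0 at an adjusted p under 0.05, where 0.116% of all genes tested were called, and voom on the recovered reads also called 0. At an unadjusted p under 0.05 there were 2, Penk and Pdyn, against 1088 of 13827 over all genes. Penk was the 1 of 4 whose transgenic libraries were all above the wild-type ones, a pattern that 6.15% of all genes tested showed, and 0 of 4 had all wild-type libraries higher, as 7.2% of genes did. In testis 2 of the 6 genes were tested (Penk and Pdyn), and 0 were called by limma or by voom, where limma called 0.576% of all genes. At an unadjusted p under 0.05 there were 0 of these 2, against 1618 of 14572 over all genes. The groups overlapped for both, where 9.94% of genes had all hDNMT3A testis libraries higher and 7.75% all wild-type ones. The interaction, which uses the libraries of both genotype comparisons, was tested for the same 2 genes. Limma called 0 of them against 0.421% of all genes. At an unadjusted p under 0.05 there was 1, Penk, against 878 of 10917 over all genes. Voom called Penk.

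**Figure D2:**
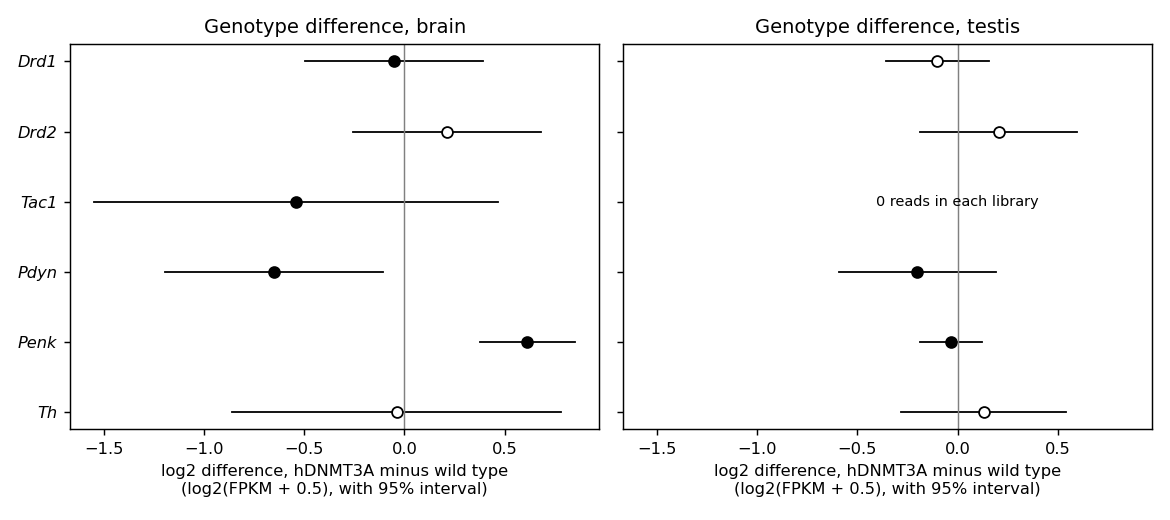
Log2 difference of each gene, hDNMT3A minus wild type, on the log2(FPKM + 0.5) scale (horizontal axes), in brain (left) and testis (right), with 95% intervals from limma; filled points passed the filter of 1 FPKM and open points come from the fit with no filter. In brain the interval of Penk (0.38 to 0.85) lies above 0 and that of Pdyn (-1.20 to -0.10) below it before adjustment for multiple tests, and in testis each interval drawn holds 0.

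The ratio of Pdyn to Penk within a library was chosen after the brain values of both genes were seen, and it is given as a description with no test, since neither gene passed the test in brain. Pdyn exceeded Penk by 5.20, 4.44 and 3.45 times in wild-type brain replicates 1, 2 and 3. In hDNMT3A brain the ratio was 1.38, 1.425 and 2.75. The highest transgenic ratio lay below the lowest wild-type ratio, and the mean log2 ratio was 2.11 ± 0.30 in wild type and 0.81 ± 0.56 in hDNMT3A brain (SD, n = 3). Penk alone already separated the genotypes in brain. The share of all gene pairs whose ratio would separate in this way was not computed. A ratio within a library does not depend on how that library is scaled. It does not show which of the 2 genes differed. The other ratios overlapped between genotypes: log2 Tac1 over Penk ran from -1.68 to -0.77 in wild type and from -3.21 to -1.40 in hDNMT3A brain, Tac1 over Drd1 from 0.54 to 1.39 and from -0.03 to 1.14, and Drd1 over Drd2 from 1.90 to 3.12 and from 1.38 to 2.51.

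**Figure D3:**
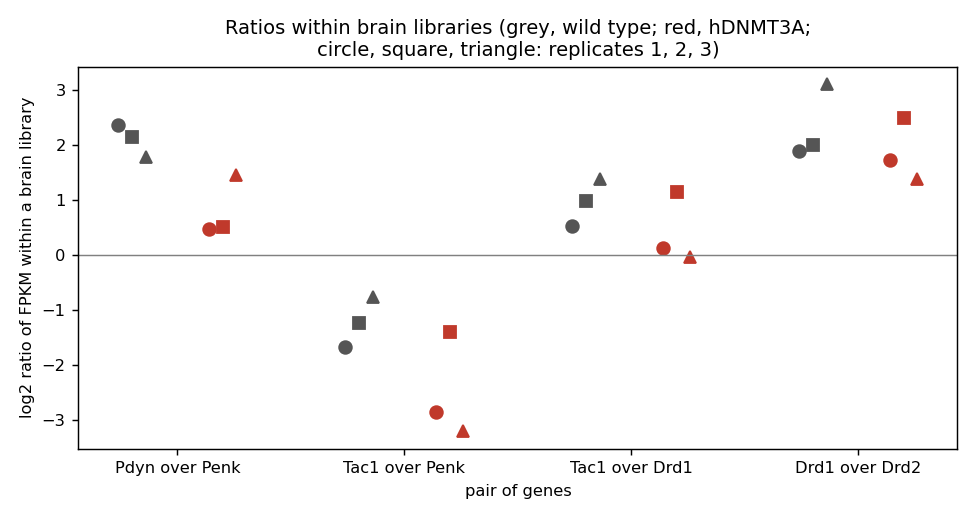
Log2 ratio of the FPKM of 2 genes within each of the 6 brain libraries (vertical axis) for 4 pairs of genes (horizontal axis), with 1 point for each library (wild type in grey, hDNMT3A in red; circle, square and triangle for replicates 1, 2 and 3). The ratio of Pdyn to Penk, chosen after the brain values were seen, lies between 1.79 and 2.38 in wild type and between 0.47 and 1.46 in hDNMT3A brain, and the other 3 ratios overlap.

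Whether the genes rose and fell together from one brain library to another was asked over the 15 pairs of genes and 6 libraries. With exact two-sided permutation tests, 0 of 15 pairs passed after Benjamini-Hochberg adjustment, and 2 had an unadjusted p under 0.05 for Pearson's r. With 6 libraries the smallest p possible was 0.0028, so little short of the most extreme ordering could pass over 15 pairs. The count of 0 therefore does not show that the genes vary independently. Drd1 and Tac1, both genes of direct-pathway neurons, moved in the same direction (r = 0.89, exact permutation p = 0.026, adjusted 0.20; Spearman rho = 0.71, exact permutation p = 0.14, adjusted 0.51), and r was 0.71 without the 2 libraries farthest from the median of Drd1. Drd2 and Tac1 moved in opposite directions (r = -0.91, exact permutation p = 0.0097, adjusted 0.15; rho = -0.94, exact permutation p = 0.017, adjusted 0.25), and r was -0.98 without the 2 libraries farthest from the median of Drd2. Around the group means, which removes genotype, r was 0.92 for Drd1 and Tac1 and -0.89 for Drd2 and Tac1. Wild-type brain replicate 3 had the highest Tac1 level and the lowest Drd2 level of the 6, and hDNMT3A brain replicate 3 had the lowest Tac1 and Drd1 levels. The Drd2 values rest on 15 to 33 reads, and the 95% counting interval of its lowest library (0.201 to 0.592 FPKM) overlapped that of its highest (0.543 to 1.11 FPKM). Penk and Drd2, both genes of indirect-pathway neurons, had r = 0.37 (exact permutation p = 0.50, adjusted 0.77; rho = 0.37, exact permutation p = 0.50, adjusted 0.62; r = 0.13 without the 2 farthest libraries), and -0.51 around the group means. Pdyn and Drd1, also both genes of direct-pathway neurons, had r = -0.47 (exact permutation p = 0.32, adjusted 0.61; rho = -0.77, exact permutation p = 0.10, adjusted 0.51; r = -0.06 without the 2 farthest libraries), and -0.84 around the group means. Tac1 and Pdyn, the other pair of direct-pathway genes, had r = -0.17 (exact permutation p = 0.71, adjusted 0.89) and -0.78 around the group means. Their rho was -0.43 (exact permutation p = 0.42, adjusted 0.62), and r was -0.24 without the 2 farthest libraries. Which cells these transcripts came from was not tested, and the brain region is not known.

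**Figure D4:**
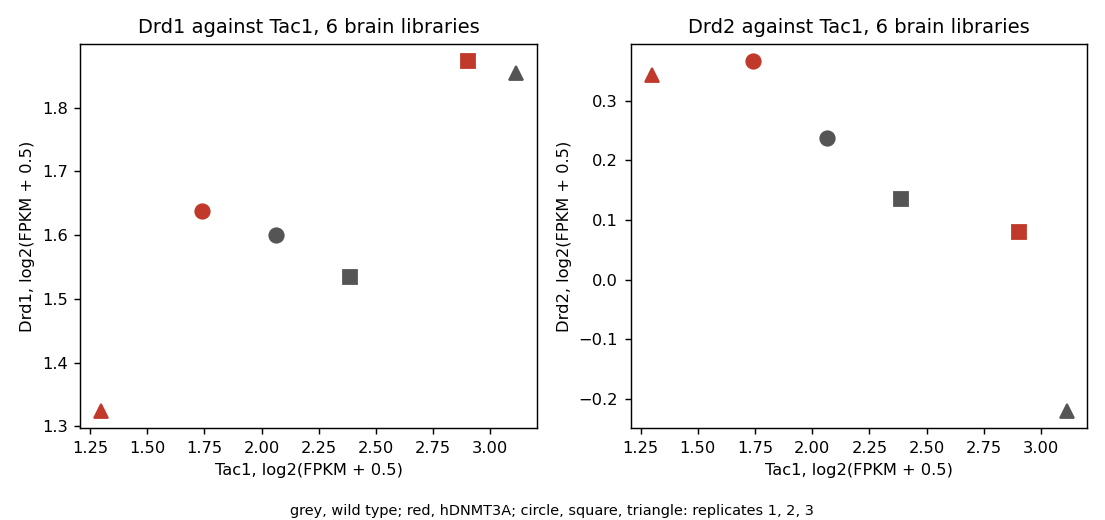
Drd1 (left) and Drd2 (right) against Tac1 in the 6 brain libraries, as log2(FPKM + 0.5) on each axis, with 1 point for each library (wild type in grey, hDNMT3A in red; circle, square and triangle for replicates 1, 2 and 3). Drd1 is highest in the 2 libraries with the most Tac1 (r = 0.89), and Drd2 falls from the libraries with little Tac1 to those with more (r = -0.91), with neither relation past the threshold after adjustment.

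No pattern common to the 5 striatal genes (all but Th) was seen over the 6 brain libraries, and 10 of the 15 pairs of the 6 genes had a negative r. Among 13827 genes, those with the highest mean r with the 5 over 6 libraries were ENSRNOG00000031275 and ENSRNOG00000012124, each with a mean r of 0.17. For ENSRNOG00000031275 the values were 0.90 with Drd1 and 0.64 with Tac1, but -0.49 with Drd2 and -0.53 with Pdyn. Because several of the 5 genes had a negative r with each other, no gene could reach a high mean r with all 5. The low mean r is thus not separate support for the lack of a common pattern.

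Brain and testis were also compared within each genotype, with no library shared between the 2 comparisons. The labels do not say whether a brain and a testis library came from the same rat, and the tissue and interaction fits treat all libraries as separate. Limma called 89.7% of all genes tested in wild type and 89.1% in hDNMT3A rats, so a call says little about these genes and their sizes are given instead. All brain libraries lay above all testis libraries for 48.8% of genes in wild type and 47.7% in hDNMT3A rats, and below them for 42% and 41.8%, so separate tissues were also the usual pattern. Penk was higher in testis, 3.62-fold in wild type and 2.29-fold in hDNMT3A rats by mean FPKM. On the log2 scale, brain minus testis, it differed by -1.82 (SE 0.09, adjusted p = 2.1e-06) and by -1.18 (SE 0.09, adjusted p = 4.4e-06). Pdyn was higher in brain, 20.4-fold in wild type and 15.8-fold in hDNMT3A rats, with log2 differences of 4.11 (SE 0.13, adjusted p = 2.5e-07) and 3.66 (SE 0.25, adjusted p = 2.4e-06). Over all genes tested the median difference was 0.23 in wild type and 0.21 in hDNMT3A rats, on the side of brain, and 0.03 in each after median-ratio scaling, under which Penk differed by -2.03 and -1.37. The direction of Penk and Pdyn was the same in each of the 14 alternatives run for either genotype.

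Drd1 and Tac1 passed the filter through brain alone, so their tissue calls carry no weight. In wild-type rats Drd1 had 266 reads in brain and 4 in testis, summed over libraries, a depth-scaled ratio of 68.8 (95% counting interval 26.6 to 254), and 268 against 0 reads in hDNMT3A rats, at least 89.2-fold higher in brain against a floor of 3 reads over the group, with a lower counting limit (95%) of 72.0. Tac1 had 289 and 215 reads in wild-type and hDNMT3A brain and 0 in testis, at least 99.7-fold and 71.5-fold higher against the same floor, with lower counting limits of 80.5 and 57.7. Drd2 was higher in each brain library than in each testis library of its genotype, by ratios of 6.83 (95% counting interval 3.49 to 14.9) and 4.23 (2.61 to 7.17). Th was higher in brain by 3.84 (2.10 to 7.51) in wild type, with no overlap between libraries, and by 2.94 (1.72 to 5.24) in hDNMT3A rats, where the libraries overlapped. With no filter, limma gave adjusted p-values of 0.0036 and 0.0037 for Drd2 and of 0.019 and 0.11 for Th. Those fits called 17472 of 24788 genes in wild type and 17203 of 24774 in hDNMT3A rats, so a call was usual there too. In the testis libraries 64 brain-restricted transcripts had between 0.0637% and 0.0926% of their level in brain, which for Pdyn equals at most 0.0407 FPKM.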

How the data were processed

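The deposited table holds FPKM values of 25908 genes in 12 libraries. Per the labels' protocols, total RNA was taken up in Trizol and made into libraries with an Illumina TruSeq kit; the submitters' processing notes name Bowtie 1.0.1 and the build Rnor_6.0. How reads were counted, on which annotation and with which use of strand, is not given in the sources used here. Reads of overlapping, antisense or near-identical genes cannot be told apart. The deposited identifiers matched 0 entries of the RefSeq table (GRCr8), so the lists of other dopamine, striatal and peptide genes and of cell type markers were not analysed here.

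Reads were recovered from the FPKM steps: the values of 100% of genes were whole reads within 0.002 at 1 length, against 0% of 1617 genes after a move of about 1%. Recovered reads covered at least 99.987% of each total. Between replicates the chi-square per gene was 4.79 to 14.2, so no library was taken for a repeat of another. Floors (3 reads) and counting intervals (95%) cover counting error only, as reads are not independent molecules.

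Genotypes, tissues and their interaction were compared with limma 3.58.1 (R 4.3.3) with a trend on log2(FPKM + 0.5), two-sided, for genes whose mean reached 1 FPKM in the libraries compared (in each tissue for the interaction), with Benjamini-Hochberg adjustment over all genes tested and a threshold of 0.05. A fold change on this scale understates that of low genes. Fits were tested on simulated data. Testis-restricted transcripts averaged 100 FPKM or more in testis and had a brain median no higher than 0.5 FPKM; brain-restricted ones were the reverse. The 6 genes were named by rule, with the 2 genes of highest mean r with 5 of them. The genes, lists and tests were chosen with earlier results of these data known; subtraction of the testis-like share and the promoter motifs were chosen after seeing the data. Other work used Python 3.11.15, numpy 2.4.6, pandas 2.3.3, scipy 1.17.1 and matplotlib 3.10.9.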

Additional observations from a re-analysis of the deposited data

How the results depend on the processing

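The count of the 6 genes called was 0 for genotype in brain, 0 for genotype in testis and 0 for the interaction, and 4 for tissue in either genotype, where 89.7% and 89.1% of all genes were called and where Drd1 and Tac1 were tested only because of their brain levels. With no filter the tissue count was 6 in wild type and 5 in hDNMT3A rats, where 17472 of 24788 and 17203 of 24774 genes were called. The genotype count became 1 (Penk) in brain with all 12 libraries in 1 fit, and 1 (Penk) for the interaction with voom on recovered reads. Without single libraries the count was 0 for genotype in brain and in testis. It ran from 2 to 4 for tissue in hDNMT3A rats, where Drd1 and Tac1 fell under the filter and were not tested without brain replicate 2, and from 0 to 1 for the interaction, where Penk was called without wild-type brain replicate 3. Without single libraries the Drd1 difference in brain ran from -0.182 to 0.0921, turning positive without replicate 3 of hDNMT3A (0.0921) or of wild type (0.0445), and the Penk difference in testis from -0.0840 to 0.0106, turning positive without hDNMT3A testis replicate 2. Brain calls, 16 in all, were 7 with a pseudocount of 0.1, 57 with all 12 libraries and 2 to 8 without single libraries. Testis calls, 84 in all, were 190 with voom, 247 with all 12 libraries and 20 to 80 without single libraries. Interaction calls, 46 in all, were 103 with no filter and 25 to 44 without single libraries. The count of correlated pairs passing was 0 also with a pseudocount of 0.1 and with median-ratio scaling. Scaling all 12 libraries to their median ratio put Penk at 17.6 FPKM in hDNMT3A brain and 48.4 FPKM in wild-type testis. The genotype difference of Penk in brain was 0.62 (limma adjusted p = 0.18) with the brain libraries scaled in this way and 0.61 without scaling.

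Replicate numbers were the same in each group. Same-numbered libraries of the 2 genotypes did not deviate together in brain: the correlations of deviations from the group means were -0.04, -0.17 and -0.22 for replicates 1, 2 and 3. In testis they were 0.05, 0.06 and 0.11, where each library correlated best with its own number. Between brain and testis they were -0.0019, -0.016 and 0.0195 in wild type and 0.117, 0.0025 and 0.0287 in hDNMT3A rats. With the replicate block, 0 of the 6 genes were called for genotype in brain (Penk adjusted p = 0.56), 0 in testis and 0 for the interaction, and 4 for tissue in either genotype, while calls over all genes were 0 in brain, 39 in testis and 1 for the interaction. Depth limited Drd2 and Th, with 1 to 33 reads per library, and in testis Drd1 and Tac1, with 0 to 4.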
